A study of Mus musculus with 12 samples.

Results

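The comparison set Rroid2 knockout (KO) memory precursor effector cells (MPEC) taken 14 days after infection against Rroid2 KO short-lived effector cells (SLEC) taken 7 days after infection. Samples were assigned to the 2 sides by their labels, genotype, population and day, which gave 4 of the 12 RNA-seq libraries of the series: 2 of KO MPEC on day 14 and 2 of KO SLEC on day 7. The contrast itself and the gene lists below were chosen with earlier results of these data known. All 4 came from OT-I cells, which are CD8 T cells carrying 1 transgenic receptor specific for an ovalbumin peptide. They had been transferred into host mice infected with *Listeria monocytogenes* expressing ovalbumin (LM-OVA) and were sorted from the spleen. The other libraries used here are 2 of KO SLEC on day 14 and the matching 3 groups of 2 from Rroid2 wild-type (WT) cells under the same transfer and infection. Both sides of the comparison carry the Rroid2 deletion. No row of the gene table is named Rroid2, so its loss could not be checked from a count. Population and day change together between the groups and cannot be told apart in the main contrast. KO SLEC on day 14 is therefore given beside it. Whether both libraries of a group stem from different mice is not stated in the labels. The p-values then measure only the spread between libraries, which may be technical. The labels give neither the gates of the sort nor the number of cells behind a library.

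During an acute infection, activated CD8 T cells expand into a large effector pool, most of which dies after the pathogen is cleared while a minority survives as memory cells. By convention SLEC carry the lectin-like receptor KLRG1 and little interleukin-7 receptor, and MPEC carry the reverse pattern. Transcription factors such as TCF1 (encoded by *Tcf7*) and ID3 are known for memory potential, while T-bet (*Tbx21*), ZEB2, BLIMP1 (*Prdm1*) and ID2 are known for effector fate. The day 7 pool is close to the peak of expansion, and the day 14 pool is in contraction.

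Total counts were 9659158 and 10950082 in KO MPEC and 13533933 and 11380423 in KO SLEC day 7. Levels below are CPM, counts scaled to library size after TMM normalisation between libraries, and 3 counts correspond to 0.223 to 0.308 CPM in these 4 libraries. Of 55421 genes in the table, 14460 passed the filter on low counts and were tested. *Cd8a* had 7027 and 8893 counts in KO MPEC and 11306 and 8648 counts in KO SLEC day 7, and *Cd4* had 0 and 0 against 3 and 6 counts. Mitochondrial ribosomal RNA took 11% and 13.8% of the counts in KO MPEC and 17.8% and 19.5% in KO SLEC day 7. KO SLEC day 7 replicate 1 had the most genes with a count, 19466, against 16088 to 16548 in the other 3. Marker genes of other cells, in 10 lists, were summed per library. The erythroid list, globins and other red cell genes, stood at 6.47 and 2.49 CPM in KO MPEC and 108.9 and 30.2 CPM in KO SLEC day 7, and 4 of its 8 tested genes were lower in MPEC. The B cell list stood at 110.3 and 132.9 CPM in KO MPEC and 82.7 and 60.4 CPM in KO SLEC day 7, with *Ighm* at 94.0 and 112 CPM in KO MPEC and 27.4 and 49.5 CPM in KO SLEC day 7. None of its 16 tested genes was called. The neutrophil list was at or below 2.83 CPM throughout. No gene was called among 5 tested neutrophil, 4 platelet and 6 CD4 T cell markers, and none of any of the 10 lists was higher in MPEC. Called lower were 2 of 11 monocyte and macrophage markers, 1 of 4 plasma cell, 1 of 3 dendritic cell (*Itgax*), 1 of 3 gamma delta T cell and 1 of 9 natural killer cell markers (*Gzma*). The part of these cells in any result was not tested.

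The conventional markers followed the labels. *Il7r*, the interleukin-7 receptor chain that transmits a survival signal to resting T cells (chr15:9505788-9530176, minus strand, GRCm38), stood at 833 and 1037 CPM in KO MPEC and at 22.9 and 18.3 CPM in KO SLEC day 7. *Klrg1* (chr6:122270596-122282882, minus strand) stood at 1.33 and 3.74 CPM in KO MPEC and at 219 and 249 CPM in KO SLEC day 7. The libraries of each group lay far from those of the other for both genes. *Il7r* was higher by 5.50 ± 0.27 log2 units (SE; adjusted p = 2.02e-08) and *Klrg1* was lower, at -6.51 ± 0.33 (adjusted p = 6.16e-08), both by edgeR's quasi-likelihood test with Benjamini-Hochberg adjustment over all tested genes, as for every adjusted p below. If these genes were read by the sort, their difference is fixed by it. Of the other markers by convention that are described here, *Ccr7*, *Cd27*, *Tcf7*, *Id3* and *Cxcr3* were higher in MPEC, and *Cx3cr1*, *S1pr5*, *Zeb2*, *Tbx21* and *Gzmb* were lower. The calls of *Cd27* (0.86 ± 0.23) and *Cxcr3* (1.61 ± 0.35) each ended without 1 of 3 libraries, with adjusted p up to 0.102 for *Cd27* (without KO MPEC replicate 1 or either KO SLEC day 7 library) and 0.110 for *Cxcr3* (without KO MPEC replicate 2 or either KO SLEC day 7 library).

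**Figure D1:**
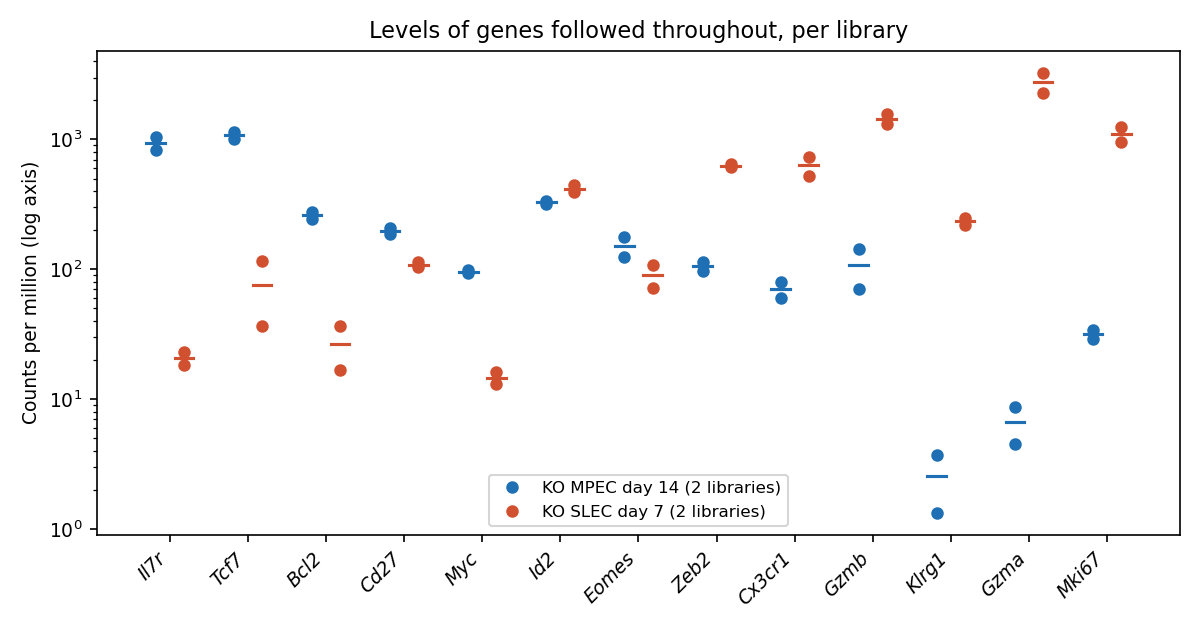
CPM on a log axis for 13 of the named genes, with KO MPEC day 14 left of KO SLEC day 7 for each gene; points are libraries and lines are the mean of 2. Il7r, Tcf7, Bcl2, Cd27 and Myc lie higher in both KO MPEC libraries, Zeb2, Cx3cr1, Gzmb, Klrg1, Gzma and Mki67 lie lower in both, and the called change runs from -8.70 log2 units for Gzma to 5.50 for Il7r.

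Of the 14460 genes tested, 2844 (19.7%) were called at an adjusted p under 0.05, 1339 (9.26%) higher in KO MPEC and 1505 (10.4%) lower. A change of at least 1 log2 unit was found among the called genes for 651 higher (4.5% of those tested) and 906 lower (6.27%). Both MPEC libraries lay above both SLEC libraries for 4040 genes (27.9%) and below both for 4211 (29.1%). Among the 11284 tested protein-coding genes, 10.9% were called higher and 12.7% lower, shares beside which the list counts below are to be read. The median change was -0.01 log2 units over all tested genes. The count of calls fell to 1632 without KO MPEC replicate 1, to 1760 without KO MPEC replicate 2 and to 1785 without KO SLEC day 7 replicate 2. Principal components were taken over the 12 libraries from the 2000 genes with the highest variance. The first, 39% of the variance of those genes, placed KO MPEC at -51.2 and -51.5 and KO SLEC day 7 at 56 and 56.3.

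Of 26 tested cytokine receptor genes, 7 were higher and 3 lower in KO MPEC, with a median of 0.21 log2 units. *Il6ra*, the ligand-binding chain of the interleukin-6 receptor, had 56.6 and 58.2 CPM in KO MPEC and 4.39 and 6.12 CPM in KO SLEC day 7. Its signalling partner *Il6st* (gp130) had 95.4 and 91.6 CPM in KO MPEC and 38.2 and 31.2 CPM in KO SLEC day 7. Neither gene overlapped between groups, and the changes were 3.46 ± 0.48 (adjusted p = 0.000453) and 1.43 ± 0.18 (adjusted p = 2.95e-05). *Il2rb*, the chain shared by the interleukin-2 and interleukin-15 receptors, was named after its values were seen. It was higher by 1.11 ± 0.21, with 673 and 766 CPM in KO MPEC and 337 and 331 CPM in KO SLEC day 7. *Il18rap*, the accessory chain of the interleukin-18 receptor, went the other way (-1.64 ± 0.21), at 328 and 305 CPM in KO MPEC and 1028 and 951 CPM in KO SLEC day 7. *Bcl2*, the survival protein known to be maintained by interleukin-7, stood at 278 and 246 CPM in KO MPEC and 36.6 and 16.7 CPM in KO SLEC day 7, a rise of 3.28 ± 0.31 (adjusted p = 3.38e-05). Among 15 tested genes of its family 2 were higher and 4 lower. The largest fall was *Pmaip1* (NOXA, a pro-death member) at -1.54 ± 0.16, with 33.1 and 33.7 CPM in KO MPEC and 94.2 and 101 CPM in KO SLEC day 7. The 6 calls of the family became 2 without KO MPEC replicate 1, KO MPEC replicate 2 or KO SLEC day 7 replicate 2.

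Of 18 tested trafficking receptor genes, 7 were higher and 4 lower, with a median of 0.74 log2 units. *Ccr7*, the receptor for the lymph node chemokines, had 28.4 and 25.5 CPM in KO MPEC and 0.744 and 0.408 CPM in KO SLEC day 7. *Gpr183*, an oxysterol receptor that positions lymphocytes within the spleen, had 123 and 142 CPM in KO MPEC and 15.5 and 22.1 CPM in KO SLEC day 7. Both were higher in every MPEC library, by 5.48 ± 0.91 and 2.83 ± 0.37 log2 units. *Cx3cr1*, the fractalkine receptor of circulating effector cells, had 60.2 and 80 CPM in KO MPEC and 525 and 738 CPM in KO SLEC day 7 (-3.17 ± 0.20, adjusted p = 2.02e-08). *S1pr5*, a sphingosine phosphate receptor, fell alongside it (-2.60 ± 0.25), with 50.8 and 40.4 CPM in KO MPEC and 247 and 307 CPM in KO SLEC day 7. *Itgam* (CD11b) fell by 4.70 ± 0.29 log2 units, at 3.18 and 1.44 CPM in KO MPEC and 60.5 and 58.9 CPM in KO SLEC day 7. It was 1 of 3 integrin genes lower among 16 tested, beside *Itgax* (-1.36 ± 0.24) and *Itgb2* (-0.59 ± 0.17, adjusted p up to 0.173 without KO MPEC replicate 1 or KO SLEC day 7 replicate 2). *Itga6*, a laminin receptor chain, was the member that rose (0.86 ± 0.20).

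Among 20 transcription factors listed for memory, 10 were higher and 2 lower, with a median of 0.79 log2 units. *Tcf7* (chr11:52252371-52283014, minus strand) had 1015 and 1142 CPM in KO MPEC and 36.5 and 115 CPM in KO SLEC day 7. The groups were well apart and the rise was 3.84 ± 0.75 (adjusted p = 0.0151), but the call ended without KO MPEC replicate 1, KO MPEC replicate 2 or KO SLEC day 7 replicate 1 (adjusted p up to 0.0616). *Id3* had 10.1 and 7.57 CPM in KO MPEC and 0.298 and 0 CPM in KO SLEC day 7, higher by 5.65 ± 1.14 (adjusted p = 0.00234). The KO SLEC day 7 level of *Id3* is near the floor, where 3 counts are 0.223 and 0.306 CPM. The size of its change is therefore uncertain, and ran from 4.84 to 9.65 log2 units over alternative settings. *Bach2*, a repressor that restrains effector genes, had 51 and 51.2 CPM in KO MPEC and 9.22 and 11 CPM in KO SLEC day 7 (2.34 ± 0.23). *Zeb1*, the counterpart of *Zeb2*, rose by 1.72 ± 0.18 and *Bcl6*, a repressor opposed to BLIMP1, by 1.77 ± 0.29. *Lef1* (1.04 ± 0.33, adjusted p = 0.0564) and *Eomes* (0.75 ± 0.57, adjusted p = 0.425) did not pass.

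The list of effector transcription factors gave 4 higher and 8 lower of 20, with a median of -0.46 log2 units. *Zeb2* (chr2:44983632-45117395, minus strand) had 114 and 97.8 CPM in KO MPEC and 644 and 612 CPM in KO SLEC day 7, lower in every MPEC library (-2.57 ± 0.24, adjusted p = 5.51e-06). *Prdm1* had 28.1 and 21.5 CPM in KO MPEC and 79.4 and 69.2 CPM in KO SLEC day 7 (-1.58 ± 0.18). *Tbx21* stood at 194 and 266 CPM in KO MPEC and 354 and 449 CPM in KO SLEC day 7. Its change was -0.80 ± 0.18 (adjusted p = 0.00424), and the call ended without KO MPEC replicate 1 or KO SLEC day 7 replicate 2 (adjusted p up to 0.0816). *Id2* (chr12:25093799-25097140, minus strand) stood at 320.3 and 334 CPM in KO MPEC and 445 and 391 CPM in KO SLEC day 7. The MPEC libraries were the lower ones, but the difference of -0.35 ± 0.18 did not pass (adjusted p = 0.188). *Tox*, a factor known from persistently stimulated T cells, was among the members that rose (1.94 ± 0.37), with 33.6 and 30.9 CPM in KO MPEC and 7.14 and 9.69 CPM in KO SLEC day 7.

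The killing machinery fell unevenly. Of 19 tested members 11 were lower and 1 higher in KO MPEC, with a median of -0.63 log2 units. *Gzma*, a serine protease of cytotoxic granules, had 4.52 and 8.72 CPM in KO MPEC and 2276 and 3265 CPM in KO SLEC day 7, a larger fall than that of any other well expressed called gene, taken as a log2 CPM averaging at least 4 (-8.70 ± 0.41, adjusted p = 1.78e-07). *Gzmb*, the protease that starts apoptosis in targets, had 70.3 and 144 CPM in KO MPEC and 1325 and 1559.6 CPM in KO SLEC day 7 (-3.75 ± 0.37). *Gzmk* had 47.4 and 36.9 CPM in KO MPEC and 152 and 193 CPM in KO SLEC day 7 (-2.03 ± 0.18). Both protease inhibitors named from the list fell too, *Serpinb6b* by 2.20 ± 0.19 and *Serpinb9*, which protects the killer from its own granzyme B, by 1.43 ± 0.18 log2 units. *Nkg7*, a granule membrane protein, did not pass (-0.44 ± 0.16, adjusted p = 0.0582).

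Surface receptors of the killer lectin-like family had no member higher and 6 of 16 lower, with a median of -1.31 log2 units. Beside *Klrg1*, *Klrd1* (CD94) had 77.9 and 65.7 CPM in KO MPEC and 161 and 196 CPM in KO SLEC day 7 (-1.31 ± 0.19, adjusted p = 0.000126). *Klra3* had 0.513 and 0.383 CPM in KO MPEC and 4.17 and 4.18 CPM in KO SLEC day 7 (-3.19 ± 0.70), and reads of the *Klra* genes may be split among near-identical copies. The 6 calls became 3 without KO MPEC replicate 1 or KO SLEC day 7 replicate 2. The list of natural killer cell markers, summed, stood at 541.5 and 490.7 CPM in KO MPEC and 2785 and 3929 CPM in KO SLEC day 7, most of it *Gzma*. In the SLAM family, adhesion receptors between lymphocytes, 5 of 10 were lower and 1 higher. *Cd48* had 92.3 and 112 CPM in KO MPEC and 290.3 and 377 CPM in KO SLEC day 7 (-1.71 ± 0.17), and *Slamf7* was at -0.84 ± 0.16. The 6 SLAM calls became 3 without KO MPEC replicate 1.

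S100 proteins, annexins and galectins, small calcium- or sugar-binding proteins that rise when T cells are activated, had 13 of 24 members lower and none higher (median -1.29 log2 units). *Lgals1* (galectin-1) had 149 and 197 CPM in KO MPEC and 860.4 and 1269.8 CPM in KO SLEC day 7. The groups did not overlap and the change was -2.62 ± 0.19 (adjusted p = 1.19e-07). *Lgals3* (-2.93 ± 0.45), *Anxa4* (-2.99 ± 0.34), *S100a4* (-2.59 ± 0.24) and *Anxa1* (-2.34 ± 0.31) fell with it.

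Costimulatory receptors and their ligands showed the opposite count, 9 of 15 higher and none lower, with a median of 0.86 log2 units. *Tnfsf8* (CD30 ligand) had 38.7 and 30 CPM in KO MPEC and 0.818 and 0.306 CPM in KO SLEC day 7 (5.84 ± 0.49, adjusted p = 5.21e-07). *Crtam*, an adhesion receptor of activated CD8 T cells, had 115 and 109 CPM in KO MPEC and 24.5 and 33.3 CPM in KO SLEC day 7 (1.96 ± 0.21). *Cd7* rose by 2.38 ± 0.38 and *Tnfrsf18* (GITR) by 1.18 ± 0.25. Of 17 inhibitory receptor genes 3 were higher and 4 lower, and these 7 calls became 3 or 4 without any 1 of the 4 libraries. *Havcr2* (TIM-3) had 1.64 and 6.14 CPM in KO MPEC and 121 and 80.7 CPM in KO SLEC day 7 (-4.68 ± 0.82), a call that ended without KO MPEC replicate 1 (adjusted p = 0.0561). *Btla*, an inhibitory receptor of resting lymphocytes, was higher by 2.46 ± 0.48, with 48.7 and 41 CPM in KO MPEC and 8.4 and 7.86 CPM in KO SLEC day 7; without either KO SLEC day 7 library the call ended (adjusted p up to 0.0880). In the T cell receptor complex no member rose and 2 of 20 fell, and the median was -0.04 log2 units; without KO MPEC replicate 1, KO MPEC replicate 2 or KO SLEC day 7 replicate 2, or with only the 4 libraries, 1 of them was called.

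The G2 and M phase list had the lowest median of the 34 lists. Of its 35 tested genes, which serve spindle assembly and mitosis, 34 were lower and none higher, with a median of -4.71 log2 units. Their summed level was 289.8 and 303.0 CPM in KO MPEC and 3877 and 3778 CPM in KO SLEC day 7. *Mki67*, a chromosome surface protein of cycling cells (chr7:135689784-135716361, minus strand), had 29 and 34.3 CPM in KO MPEC and 1246 and 956 CPM in KO SLEC day 7 (-5.12 ± 0.69, adjusted p = 0.00315). *Ube2c*, the ubiquitin-conjugating enzyme of mitotic exit, had 0.821 and 0.383 CPM in KO MPEC and 45.1 and 55.5 CPM in KO SLEC day 7 (-6.37 ± 0.59). *Kif11*, a spindle motor, had 8.93 and 3.74 CPM in KO MPEC and 155 and 176 CPM in KO SLEC day 7 (-4.71 ± 0.68). *Cdk1*, the kinase that drives entry into mitosis, had 3.49 and 2.3 CPM in KO MPEC and 39 and 58.1 CPM in KO SLEC day 7 (-4.07 ± 0.38). *Top2a*, the topoisomerase that untangles chromosomes, had 43.7 and 40.5 CPM in KO MPEC and 444 and 503 CPM in KO SLEC day 7 (-3.49 ± 0.42). *Cdk1* and *Top2a* were picked after their values were seen, because their promoters hold both motifs described next.

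Promoters of late cell cycle genes are known for CCAAT boxes, bound by the factor NF-Y, and for the cell cycle homology element TTTGAA, bound by the DREAM complex and the B-MYB and MuvB complex. Promoters of 30 of the 35 genes, 32 sequences in all, were found in the RefSeq table for GRCm38.p6 and searched on both strands over the 250 bases upstream of the start. For 49 of 68 promoters of the G2 and M phase and S phase lists, the 30 bases from the start occurred in an annotated transcript of the gene. The other starts had no such match. CCAAT was present in 26 of 32 (81.2%), against 33.8% of all 32851 promoters. TTTGAA was present in 12 (37.5%), against 16% of all promoters, and both in 11 (34.4%), against 5.55%. Neither motif contains the other. S phase promoters held CCAAT in 61.1%, TTTGAA in 11.1% and both in 8.33% of 36 sequences from 30 genes. A match of letters shows neither binding nor a cause. The 120 bases before the start are shown for 4 genes that hold both motifs and whose RNA was among those lower in MPEC, written 5′ to 3′ on the gene's own strand, with either motif in capitals; on the opposite strand CCAAT reads ATTGG and TTTGAA reads TTCAAA.
Ube2c, chr2:164769809-164769928, plus strand: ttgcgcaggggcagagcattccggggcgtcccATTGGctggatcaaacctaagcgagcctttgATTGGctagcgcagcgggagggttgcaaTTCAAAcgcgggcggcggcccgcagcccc
Kif11, chr19:37376262-37376381, plus strand: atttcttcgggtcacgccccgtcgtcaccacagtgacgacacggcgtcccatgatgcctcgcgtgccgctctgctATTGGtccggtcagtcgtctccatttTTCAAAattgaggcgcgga
Cdk1, chr10:69352913-69353032, minus strand: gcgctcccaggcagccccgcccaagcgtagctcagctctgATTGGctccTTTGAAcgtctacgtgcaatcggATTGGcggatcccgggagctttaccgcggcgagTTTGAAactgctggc
Top2a, chr11:99024190-99024309, minus strand: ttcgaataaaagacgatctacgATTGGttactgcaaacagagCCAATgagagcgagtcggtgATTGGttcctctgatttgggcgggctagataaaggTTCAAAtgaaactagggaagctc

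Of 38 tested S phase genes, 24 were lower and none higher, with a median of -1.74 log2 units. Their sum was 969.8 and 1136 CPM in KO MPEC and 2812 and 2451 CPM in KO SLEC day 7, and the 24 calls became 11 without KO MPEC replicate 1 and 10 without KO MPEC replicate 2. Replication-dependent histone genes, which are switched on in S phase, had 49 of 55 tested members lower and none higher (median -3.95). They summed to 956.8 and 777.4 CPM in KO MPEC and 6904 and 5944 CPM in KO SLEC day 7. *Hist1h1b*, a linker histone, had 5.85 and 5.27 CPM in KO MPEC and 632 and 580.0 CPM in KO SLEC day 7 (-6.77 ± 0.48). *Hist1h3g* and *Hist1h2bf* had no count in either KO MPEC library, so with a floor of 3 counts over both libraries they were at least 203-fold and 97.8-fold lower there. Their reads may be shared with near-identical histone copies. Whether fewer MPEC were cycling or each held less of this RNA cannot be told apart in bulk RNA.

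**Figure D2:**
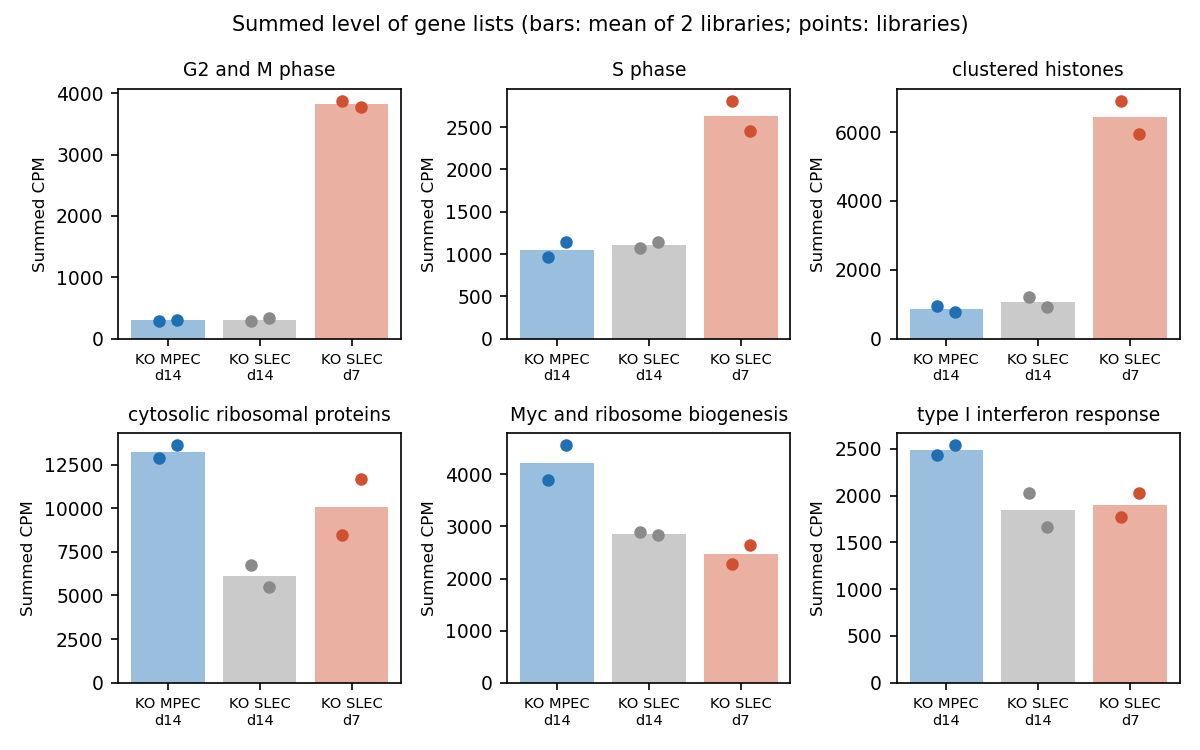
Summed CPM of 6 gene lists in KO MPEC day 14, KO SLEC day 14 and KO SLEC day 7; bars are means of 2 libraries and points are libraries. The G2 and M phase, S phase and histone sums are low in both day 14 groups, while the ribosomal protein sum is 12847 and 13610 CPM in KO MPEC, 6717 and 5492 CPM in KO SLEC day 14 and 8449 and 11696 CPM in KO SLEC day 7.

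Of 33 tested genes of the Myc and ribosome biogenesis list, 21 were higher and none lower, with a median of 0.84 log2 units. *Myc*, the transcription factor that drives biosynthesis, had 99.2 and 92.8 CPM in KO MPEC and 16.1 and 13.2 CPM in KO SLEC day 7. Both MPEC libraries were far above, at 2.71 ± 0.47 (adjusted p = 0.00353), but the call ended without KO SLEC day 7 replicate 2 (adjusted p = 0.0774). *Polr1a*, the catalytic subunit of RNA polymerase I, had 137 and 141 CPM in KO MPEC and 38.5 and 43 CPM in KO SLEC day 7 (1.77 ± 0.15, adjusted p = 4.88e-07). *Utp20*, which processes the small subunit RNA, rose by 1.69 ± 0.18 and *Tsr1* by 1.41 ± 0.21. *Mdn1*, a very large remodeller of the pre-60S subunit that is on no list, had 330.5 and 284 CPM in KO MPEC and 59 and 52.9 CPM in KO SLEC day 7 (2.46 ± 0.15, adjusted p = 2.02e-08). Cytosolic ribosomal proteins had 13 of 80 members higher and 2 lower, with a median of 0.45 log2 units. *Rpl23* had 180.2 and 181 CPM in KO MPEC and 78.4 and 106 CPM in KO SLEC day 7 (0.97 ± 0.15), and *Rplp1* rose by 0.85 ± 0.18. Without KO MPEC replicate 2 the 15 calls became 7.

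Of 78 tested nuclear genes for subunits of the respiratory chain, which makes most ATP in resting cells, 35 were lower and 1 higher, with a median of -0.60 log2 units. *Cox5b*, a subunit of cytochrome oxidase, had 51.7 and 52.4 CPM in KO MPEC and 129 and 138 CPM in KO SLEC day 7 (-1.36 ± 0.16, adjusted p = 2.46e-05). The 7 tested mitochondrially encoded subunits gave no call and a median of -0.08 (1 was called without KO MPEC replicate 1 or with no filter). Proteasome subunits had 19 of 37 lower and none higher (median -0.65), among them *Psmd8*, at 73.9 and 68.6 CPM in KO MPEC and 171 and 201 CPM in KO SLEC day 7 (-1.38 ± 0.14). Mitochondrial ribosomal proteins had 18 of 77 lower and 1 higher (median -0.47). The 36 respiratory chain calls became 19 without KO MPEC replicate 1 and 18 without KO SLEC day 7 replicate 2. The 19 proteasome calls became 11 and 9 without the same libraries, and the 19 mitochondrial ribosome calls 11 and 5, and 12 without KO MPEC replicate 2. Glycolysis genes had 2 of 26 higher and 1 lower, with a median of 0.04 (5 to 7 calls with no filter on low counts or without either WT SLEC day 7 library). *Pdk1*, a kinase that inhibits pyruvate dehydrogenase, was among those higher, at 83 and 77.9 CPM in KO MPEC and 13.7 and 12.6 CPM in KO SLEC day 7 (2.61 ± 0.22).

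Gene length moved with these calls. Among protein-coding genes, the shortest of 5 bins by exonic length (165 to 2548 bases) had 3.9% of 2257 genes higher and 19.8% lower in KO MPEC, with a median of -0.35 log2 units. The longest bin (7644 to 123179 bases) had 21.5% of 2256 genes higher and 7.31% lower, with a median of 0.20. The share of protein-coding CPM taken by the shortest bin was 11% and 11.6% in KO MPEC and 10.5% and 9.43% in KO SLEC day 14, against 14% and 15.8% in KO SLEC day 7. In WT cells the same contrast called 4.08% higher and 14.4% lower in the shortest bin. KO SLEC day 14 over KO SLEC day 7 gave 1.51% higher and 21.8% lower in the shortest bin, and 23% and 4.34% in the longest. KO MPEC over KO SLEC day 14 gave 3.9% higher and 2.39% lower in the shortest bin, and 3.63% and 3.99% in the longest. Respiratory chain genes had a median exonic length of 1737 bases, proteasome genes 2820, histones 534, Myc and ribosome biogenesis genes 3837 and G2 and M phase genes 4677. Among lists with more members higher than lower, the shortest medians were 1805.5 bases for cytosolic ribosomal protein genes and 2277 for costimulatory genes. The longest were 8574 for memory transcription factors and 5856 for circadian clock genes. The part of length in these results was not tested.

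**Figure D3:**
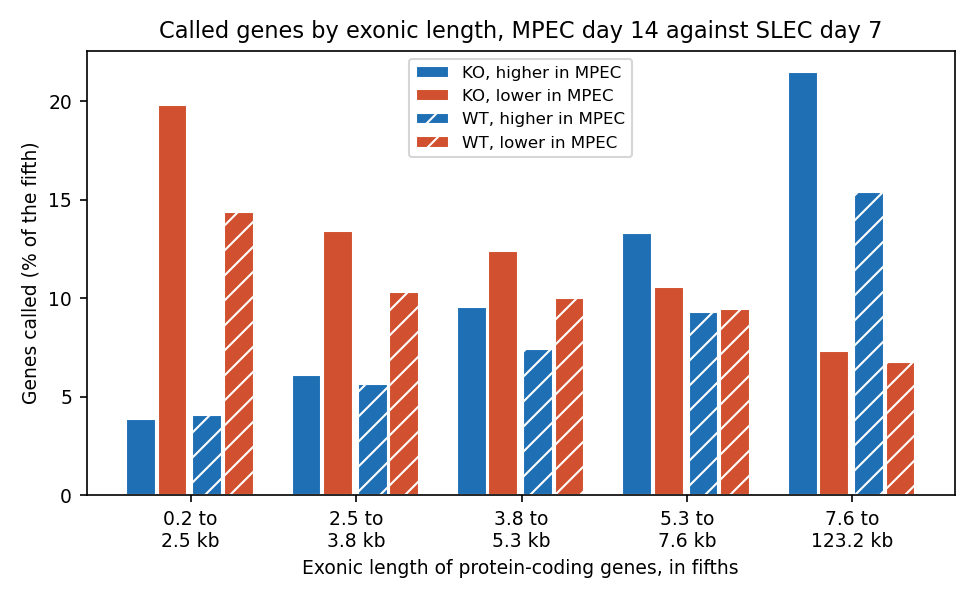
Share of protein-coding genes called higher or lower in MPEC day 14 against SLEC day 7 (percent of each of 5 bins), by exonic length, for KO (plain bars) and WT cells (hatched bars). In KO cells the share called lower is 19.8% in the shortest bin and 7.31% in the longest, and the share called higher is 3.9% and 21.5%.

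Type I interferon response genes had 10 of 34 members higher and none lower, with a median of 0.54 log2 units. *Oas3*, a sensor of double-stranded RNA, had 124 and 159 CPM in KO MPEC and 45.1 and 73.5 CPM in KO SLEC day 7 (1.26 ± 0.24, adjusted p = 0.00186). *Oasl2* had 16.4 and 11.4 CPM in KO MPEC and 2.45 and 0.51 CPM in KO SLEC day 7 (3.18 ± 0.71), and *Ifi208* rose by 1.16 ± 0.21. Feedback inhibitors of cytokine signalling had 5 of 14 higher and 1 lower, calls that became 3 without KO MPEC replicate 2 or KO SLEC day 7 replicate 2. *Socs1* had 20.2 and 21.4 CPM in KO MPEC and 6.4 and 3.88 CPM in KO SLEC day 7 (adjusted p = 0.00076), and *Socs5* rose by 2.65 ± 0.42. Circadian clock genes had 5 of 15 higher and 1 lower (median 0.87): *Nr1d2*, a repressor of the clock, had 48.9 and 45.4 CPM in KO MPEC and 8.03 and 14.7 CPM in KO SLEC day 7 (2.07 ± 0.30). *Dbp*, an output gene of the clock, rose by 1.90 ± 0.36 and *Cry1* fell by 1.25 ± 0.24. The labels do not give the hour at which mice were taken.

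Several of the next lists lay near or below the shares over all tested protein-coding genes, 10.9% higher and 12.7% lower. Cytokine and chemokine genes had 3 of 13 tested members higher and 3 lower, and 3 calls in all without KO SLEC day 7 replicate 1. *Ltb* (lymphotoxin beta), which maintains lymphoid tissue, had 172 and 227 CPM in KO MPEC and 57.3 and 74.3 CPM in KO SLEC day 7 (1.60 ± 0.18). The chemokines *Ccl3* (-1.92 ± 0.39) and *Ccl4* (-1.89 ± 0.38) were lower, and *Ifng* did not pass (-0.86 ± 0.31, adjusted p = 0.0558). *Il2* and *Il10* did not pass the filter on low counts. Cholesterol and fatty acid synthesis genes had 2 of 28 higher and 6 lower (3 to 5 calls without any 1 of the 4 libraries), *Fasn* (fatty acid synthase) higher at 1.35 ± 0.18 and *Dhcr7*, the last enzyme of cholesterol synthesis, lower at -1.18 ± 0.24. Nutrient and iron uptake genes had 4 of 17 higher and 2 lower: *Slc11a2*, an iron importer, rose by 1.80 ± 0.26 and *Tfrc*, the transferrin receptor of dividing cells, was at -1.15 ± 0.25. Fatty acid oxidation genes had 1 of 20 higher and 3 lower (2 calls without KO MPEC replicate 1 or KO SLEC day 7 replicate 2), the higher one being *Ppargc1b*, a coactivator of mitochondrial genes (1.87 ± 0.23). DNA methylation and Polycomb genes had 3 of 23 higher and 3 lower (3 calls without either KO MPEC library), with *Cbx7* at 1.22 ± 0.20 and *Tet3* at 0.91 ± 0.16. Among Id proteins and the E proteins they inhibit, *Id3* and the E protein gene *Tcf12* (0.77 ± 0.14) were the 2 of 5 higher, and none was lower. Immediate early genes had 2 of 31 higher and 1 lower, with 6 to 8 calls by DESeq2, with no filter, with only the 4 libraries or without either WT SLEC day 7 library. *Gimap7* was the 1 of 8 GIMAP genes lower (-0.60 ± 0.18), a call that ended without KO MPEC replicate 1, KO MPEC replicate 2 or KO SLEC day 7 replicate 2.

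Outside the lists, the naming rule added genes with large or precise changes. *Rflnb*, a filamin-binding protein, had 45.3 and 42.3 CPM in KO MPEC and 0.669 and 0.204 CPM in KO SLEC day 7 (6.52 ± 0.44, adjusted p = 4.93e-08). *Pou6f1*, a homeobox factor, had 125 and 116 CPM in KO MPEC and 18.4 and 14.8 CPM in KO SLEC day 7 (2.85 ± 0.20). *Inpp4b*, a phosphatase of phosphoinositide signalling, rose by 2.16 ± 0.18. *Aff3*, *Slfn5*, *Nsg2*, *Parp8*, *Zfp827* and the non-coding RNA *Peg13* rose by 2.95 to 4.42 log2 units. Among genes lower in MPEC, *Esm1*, a secreted proteoglycan, had the smallest p of all (-4.74 ± 0.20, adjusted p = 9.07e-11), with 4.52 and 6.42 CPM in KO MPEC and 149.8 and 144 CPM in KO SLEC day 7. *Pycard*, the adaptor of inflammasomes, was at -2.58 ± 0.17, with 47.2 and 39.7 CPM in KO MPEC and 222 and 297 CPM in KO SLEC day 7. *Ly6a2*, annotated as a transcribed pseudogene, was at -4.10 ± 0.23, and its reads may be shared with other *Ly6* genes.

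The change from KO SLEC day 7 to KO MPEC equals the sum of a day step, KO SLEC day 14 over KO SLEC day 7, and a population step, KO MPEC over KO SLEC day 14. The steps share libraries with the main contrast, so their values are only set side by side. The day step called 2504 genes (17.3%), 1130 higher (7.81%) and 1374 lower (9.5%). The population step called 775 (5.36%), 418 higher (2.89%) and 357 lower (2.47%). The day step fell to 1339 calls without KO SLEC day 7 replicate 2, and to 1638 and 924 without replicate 1 or 2 of KO SLEC day 14. The population step fell to 404 and 421 calls without replicate 1 or 2 of KO MPEC and to 295 without KO SLEC day 14 replicate 2. G2 and M phase genes had a median of -4.79 in the day step and 0.08 in the population step, S phase genes -1.80 and 0.06, and histones -3.95 and 0.00. Killer lectin-like receptors had a median of 0.87 in the day step and -2.80 in the population step. Of their 16 tested members, 1 was called higher and 1 lower in the day step, and 7 were called lower and none higher in the population step. Cytosolic ribosomal proteins had 25 of 80 lower and none higher in the day step, and 40 higher and none lower in the population step. Myc and ribosome biogenesis genes had medians of 0.10 and 0.70, and interferon response genes -0.16 and 0.48. Respiratory chain genes had -0.93 and 0.22, and proteasome genes -0.76 and 0.16.

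*Zeb2* was at 1.27 in the day step and -3.85 in the population step, *Cx3cr1* 0.59 and -3.76, and *Il7r* 1.48 and 4.02 (all called). *Gzma* was at -1.81 in the day step and -6.89 in the population step, and *Gzmb* at -1.72 and -2.03. *Myc* was at -1.42 in the day step, not called, and 4.12 in the population step. *Bcl2* (2.03 and 1.25) was called higher in both steps, while *Bach2* (1.92 and 0.42) was called in the day step alone. *Id2* was lower in the day step (-0.58, adjusted p = 0.0357) and not called in the population step (0.23).

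**Figure D4:**
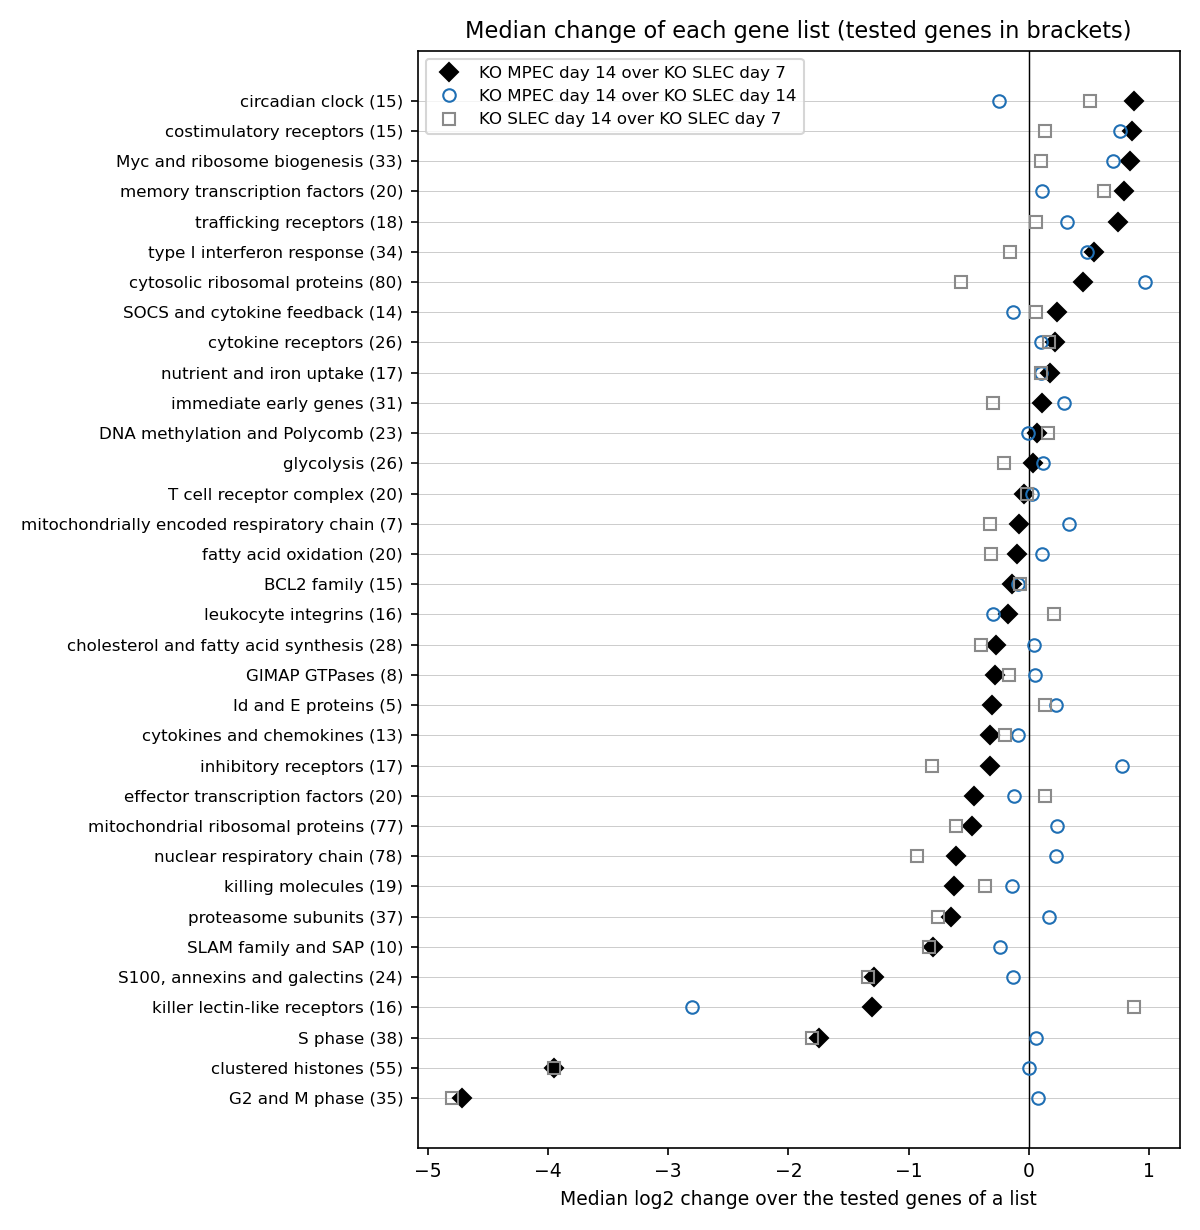
Median log2 change of 34 gene lists for KO MPEC day 14 over KO SLEC day 7 (diamonds), KO MPEC day 14 over KO SLEC day 14 (circles) and KO SLEC day 14 over KO SLEC day 7 (squares). The diamonds of the G2 and M phase, histone and S phase lists (-4.71, -3.95 and -1.74) lie with the squares, and that of the costimulatory list (0.86) lies near its circle (0.76).

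The same contrast in WT cells, which shares no library with the KO one, called 2218 genes (15.3%), 1022 higher (7.07%) and 1196 lower (8.27%). Both contrasts came from 1 fit of all 12 libraries and use its estimate of spread, so their calls are not fully independent. It called 1204 and 879 without replicate 1 or 2 of WT MPEC and 1390 with its own 4 libraries alone. WT libraries of 1 group differed from each other in the summed B cell and the G2 and M phase lists. The B cell list stood at 395.9 and 135.2 CPM in WT MPEC and 27.8 and 91.8 CPM in WT SLEC day 7, with a median change of 2.29 log2 units in WT against -0.91 in KO. It was highest in WT SLEC day 14, at 825.8 and 2887 CPM, libraries that enter the fit but neither contrast. Without the WT SLEC day 14 libraries the KO contrast called 2551 genes and the WT contrast 1971. The G2 and M phase list stood at 340.8 and 301.2 CPM in WT MPEC and 1806 and 4514 CPM in WT SLEC day 7. The part of these differences in the WT values was not tested. Of the genes called higher, 814 were common to both genotypes, 60.8% of the KO list and 79.6% of the WT list. Of those called lower, 942 were common, 62.6% of the KO and 78.8% of the WT list. No gene was called in opposite directions. Of the genes called in KO, 1326 of 1339 higher (99%) and 1484 of 1505 lower (98.6%) had the same sign in WT. The share with the same sign over all tested genes was not computed. Across the 14460 genes, which are not independent replicates, Pearson's r between the changes was 0.615 and Spearman's rho 0.657. List medians in KO and WT were -4.71 and -4.15 for G2 and M phase genes, 0.84 and 0.74 for Myc and ribosome biogenesis, 0.54 and 0.56 for interferon response. A test of the difference between the 2 contrasts (an interaction term in edgeR) called 1 gene of 14460 (0.00692%), *Ola1*, and 395 had an unadjusted p under 0.05. Those 395 are a smaller share of the genes than the 0.05 that evenly spread p-values would give. With 2 libraries a group, the near absence of calls does not show that the contrasts are equal. The interaction test called no gene without KO SLEC day 7 replicate 2 or WT SLEC day 7 replicate 1, 29 without WT SLEC day 7 replicate 2 and 8 with no filter on low counts. *Id3*, at 5.65 in KO and 2.17 in WT, and *Maf*, at -1.99 in KO and 0.52 in WT, were called in KO alone, and their difference did not pass (adjusted p = 0.999869 for *Id3* and *Maf*). The KO value of *Id3* rested on few counts in KO SLEC day 7.

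**Figure D5:**
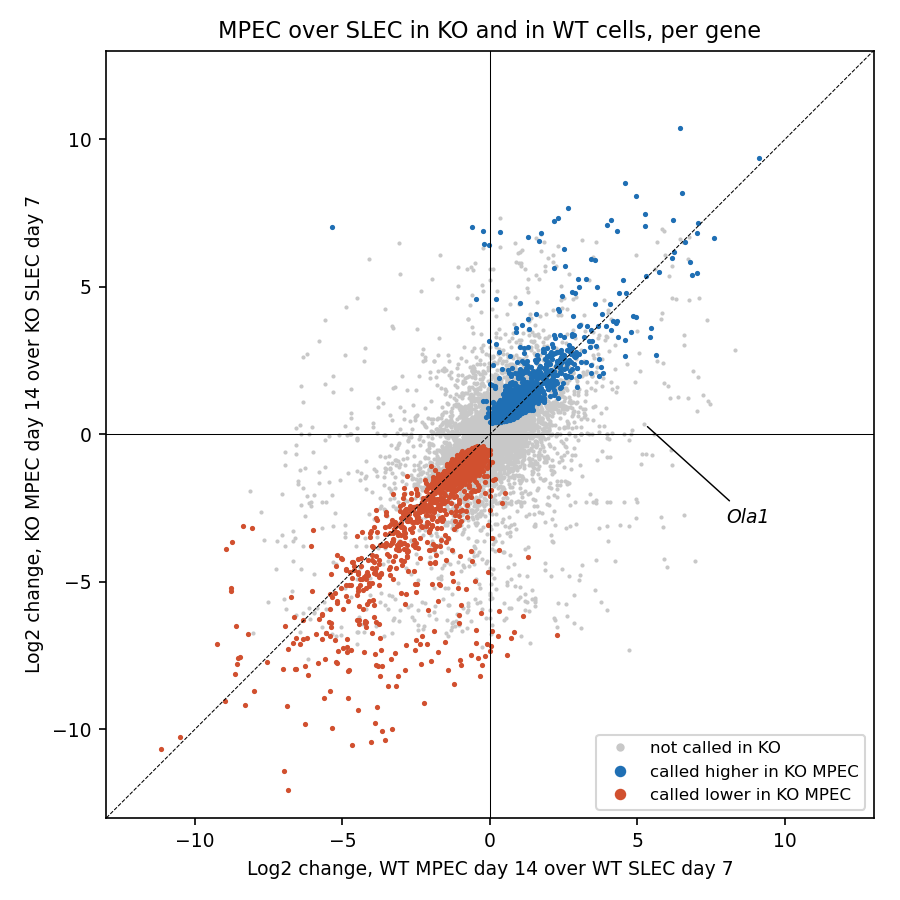
Log2 change of each of 14460 genes, MPEC day 14 over SLEC day 7, in WT cells (horizontal axis) and KO cells (vertical axis); blue and red points were called higher and lower in KO MPEC, grey points were not called in KO, and the dashed line marks equal change. Pearson's r is 0.615 over all genes, and Ola1 lies at 5.23 in WT and 0.35 in KO.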

How the data were processed

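Sorted OT-I cells were profiled by stranded SMART-Seq RNA sequencing, per the labels' protocols. The authors deposited raw counts per gene, which were whole numbers in every cell of the table. Per the submitters' processing notes, bcl2fastq, STAR 2.6.1a and GRCm38 were used; no counting program, annotation or strand option is named there, so reads of overlapping genes cannot be told apart. Of 55421 gene IDs, 55240 (99.7%) were placed on GRCm38 through a GENCODE annotation, and 27 symbols held as date serial numbers were restored through the ID.

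The filterByExpr rule of edgeR 4.0.16 (R 4.3.3) left 14460 genes, at least 99.7% of any library's counts. TMM factors scaled the libraries, and all 12 entered 1 quasi-likelihood fit with a coefficient for each of the 6 groups (residual degrees of freedom 6, median prior 11.5). Tests were two-sided, and calls were made at a Benjamini-Hochberg adjusted p under 0.05 per contrast. Each SE, given after ±, is the absolute log2 change divided by the square root of the test's F statistic. It is approximate, most of all where a group has few counts. CPM are counts scaled by the TMM library sizes. A fold against no count used a floor of 3 counts over the group. Limits from counts cover counting error only.

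Genes were named by a rule: the 12 largest rises and 12 largest falls among calls whose mean log2 CPM reached 4 and whose groups did not overlap, the 5 smallest p per direction, up to 5 called and 2 other members per list, 16 genes followed throughout and, with fewer than 5 called in the interaction, its 5 smallest p. This gave 241 genes, described here in part; genes named outside it are marked, and the conventional markers were fixed as a list. Predicted genes, receptor segments and mitochondrial RNA were not named. The contrast, the 34 T cell lists and the 10 lists of other cells were chosen with earlier results of these data known. Alternatives were RLE scaling, DESeq2 1.42.0, no filter, 1 CPM in 2 libraries, fewer libraries in the fit, a replicate block, no mitochondrial genes and leaving out each library in turn. No library was left out of the results as reported. Some listed genes are counted with their lists but not reported here by name.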

Additional observations from a re-analysis of the deposited data

Results flagged for a closer look

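*Ola1*, an ATPase of the Obg family (chr2:73092801-73218924, minus strand), was the 1 gene for which the MPEC over SLEC change differed between genotypes by a test of the difference itself: KO minus WT was -4.88 ± 0.42 log2 units (edgeR interaction term, adjusted p = 0.000846). *Ola1* had 2461 and 3994 CPM in KO MPEC day 14 and 2285 and 2764 CPM in KO SLEC day 7. In WT cells *Ola1* had 2472 and 4192 CPM in MPEC day 14 and 81.6 and 95.5 CPM in SLEC day 7. *Ola1* in SLEC on day 14 was at 2488 and 3813 CPM in KO and 1639 and 1560 CPM in WT cells, so the 2 WT SLEC day 7 libraries stood apart from the other 10. The KO change was 0.35 ± 0.28 (adjusted p = 0.424) and the WT change 5.23. The call ended without KO SLEC day 7 replicate 2 or WT SLEC day 7 replicate 1, and the cause was not tested.

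*Maf*, among the 5 genes with the smallest p for this difference, had 2.67 and 3.64 CPM in KO MPEC and 10.5 and 14.7 CPM in KO SLEC day 7, against 6.27 and 9.70 CPM in WT MPEC and 5.25 and 5.84 CPM in WT SLEC day 7. Its difference of -2.51 ± 0.58 log2 units did not pass.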

How the results depend on the processing

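With 2 libraries a group, single libraries set how many genes were called. Leaving out each of the 12 in turn gave 1632 to 3325 calls between KO MPEC and KO SLEC day 7, 879 to 2303 in the WT contrast, 0 to 29 in the interaction, 924 to 2959 in the day step and 295 to 1095 in the population step. The KO contrast called 2833 genes with RLE scaling, 2873 with no filter, 2852 at 1 CPM in 2 libraries, 2427 with its 4 libraries alone, 2851 without mitochondrial genes, 2551 without WT SLEC day 14 and 3138 by DESeq2. The WT contrast called 1390 with its own libraries alone, and the interaction 8 with no filter. Of 180 named genes called, 124 kept their call in all 20 alternatives and 56 lost it in at least 1; none reversed. Among genes not called, leaving out 1 library put *Ola1* between -0.043 (without KO MPEC replicate 2) and 0.659, and *Klra8*, whose only 3 counts among the 4 KO MPEC and KO SLEC day 7 libraries came from KO SLEC day 7 replicate 2, between -4.87 and 0 (without that library). Samples sharing a replicate number showed little shared deviation (correlation 0.0672 between KO MPEC and KO SLEC day 7, -0.133 to 0.117 over all 15 pairs of groups). With 2 libraries a group, such correlations cannot exclude a shared source, such as a mouse, which the labels do not state. The fit with a replicate block called 2779 genes.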

Other observations

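Genes next to *Gzma* on chromosome 13 were also lower in MPEC, as seen after the values were known. Of 7 tested genes in a window around it (GRCm38), itself included, 5 were called lower, where 10.4% of all 14460 tested genes were; the window was chosen with those values known. They were *Cdc20b*, *Gpx8*, *Gzma*, *Gzmk* and *Esm1*, which span 191 kb. *Cdc20b*, which ends 2.63 kb from *Gzma* and holds *Gpx8* within its annotated span, had no count in KO MPEC and 12.3 and 14.2 CPM in KO SLEC day 7, at least 88.2-fold lower. *Gpx8* had no count in KO MPEC and 15.2 and 19.5 CPM in KO SLEC day 7, at least 114-fold lower. Neither *Cdc20b* nor *Gpx8* had a count in WT MPEC, against 15.7 and 15.7 CPM of *Cdc20b* and 36.9 and 12.2 CPM of *Gpx8* in WT SLEC day 7. In KO SLEC day 14 *Cdc20b* stood at 8.09 and 9.34 CPM and *Gpx8* at 1.62 and 2.47 CPM. *Gzmk* was at -2.26 log2 units in the day step and 0.23 in the population step, while *Esm1*, which lies within the annotated span of *Gzmk*, was at -1.08 and -3.66. The other 2 tested genes of the window, *Dhx29* (0.12) and *Ccno* (-3.34, adjusted p = 0.0608), were not called. *Gzma*, *Gpx8* and *Gzmk* are annotated on the minus strand, and *Cdc20b* and *Esm1* on the plus strand. The library was stranded, but no strand option of the counting is named, so reads of overlapping genes cannot be told apart here. The part of *Gzma* transcripts running into *Gpx8* or *Cdc20b* was not tested.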
